A study of Rattus norvegicus with 6 samples.

Results

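The genes described here are 8 genes of the axis by which skeletal cells control osteoclasts, the cells that resorb bone and calcified cartilage. They were taken by symbol: the signals Tnfsf11 (RANKL) and Csf1 (M-CSF), the receptors Tnfrsf11a (RANK) and Csf1r, the decoy receptor Tnfrsf11b (osteoprotegerin, OPG), the transcription factor Nfatc1, and the enzymes Acp5 (tartrate-resistant acid phosphatase, TRAP) and Ctsk (cathepsin K). All 8 had a row among the 17954 genes of the deposited tables. The libraries came from cultures of the rat mandibular condyle, the head of the jaw joint. The organoid group (3 libraries) held condylar cartilage organoids kept in a chondrogenic medium, and the 2D culture group (3 libraries) held condylar chondrocytes, the cells of cartilage, grown flat in DMEM with 20% fetal bovine serum. The labels do not say from which cells the organoids were grown. Culture form and medium differ together between the groups and cannot be told apart. No serum share is given for the organoid medium. The labels give no animal, age or culture date for a library, so the p-values measure the spread between these libraries, which may be technical.

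In bone and growth cartilage, RANKL on skeletal cells binds RANK on precursors of the macrophage lineage and drives them to become osteoclasts, and M-CSF acting through CSF1R keeps those precursors alive. OPG, secreted by the same skeletal cells, captures RANKL and blocks it. RANK signalling induces NFATc1, which in osteoclasts switches on genes of resorption, among them those of TRAP and cathepsin K. Hypertrophic chondrocytes and osteocytes are known sources of RANKL.

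Total estimated counts ran from 18592574 to 26472447 per library. Levels are CPM, counts scaled to a common library size, after TMM scaling, which evens out the bulk of the genes between libraries, and fold changes are organoid over 2D culture on the log2 scale with their standard error. A gene is called when its p, adjusted over all 13052 tested genes by Benjamini-Hochberg in edgeR's quasi-likelihood test, is under 0.05. Organoid libraries varied more among themselves (Spearman correlation of log2 CPM 0.847 to 0.913) than 2D culture libraries (0.992 to 0.994). Of the 8 cartilage markers, 7 were tested and 6 were called higher in organoids (85.7%, against 14.9% of all tested genes). In 2D culture Col2a1, the main cartilage collagen, averaged 4.01 ± 1.01 CPM, while Acan, the aggregating proteoglycan, averaged 1460 ± 50.2 CPM (SD, n = 3). Matn1, the marker not tested, had 1 count over the 2D culture group, against 134, 24 and 0 counts in organoids 1, 2 and 3. All 8 osteoblast and osteocyte markers were called higher in organoids, against 14.9% of all tested genes. Their summed level was 20480 to 27420 CPM in organoids and 602.7 to 674.9 CPM in 2D culture.

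Of the 8 genes, 5 were tested and 3 were called, against 27.5% of all tested genes. Nfatc1 and Acp5 were called higher in organoids (14.9% of all tested genes were called in that direction), and Csf1 was called lower (12.6%). These shares depend on scaling: with total library size 8.14% of tested genes were called higher and 27% lower, so that 23.1% of calls were higher, against 54.1% with TMM. Tnfrsf11b and Ctsk did not pass. Tnfsf11, Tnfrsf11a and Csf1r were removed by the low-count filter, which asks for about 10 counts in at least 3 libraries, and they are given as counts. Among the 5 tested genes, 4 had groups that did not overlap, as did 53.5% of all tested genes. In bulk RNA, fewer cells that carry a transcript and less transcript per cell cannot be told apart.

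**Figure D1:**
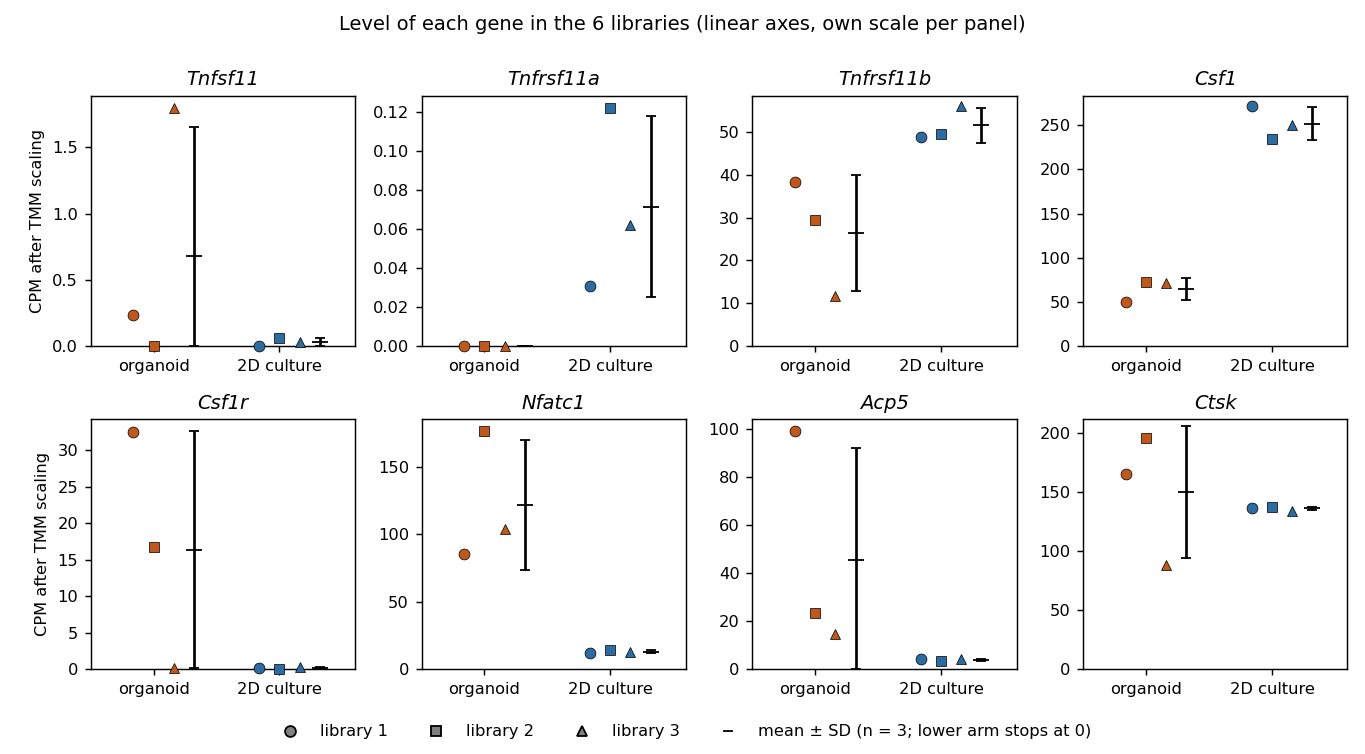
Level of each of the 8 genes in CPM after TMM scaling (vertical axis, linear, with its own scale in each panel) in the 3 organoid libraries (orange, left) and the 3 2D culture libraries (blue, right), with the mean ± SD beside each group. Nfatc1 and Acp5 stand higher and Csf1 stands lower in every organoid library, while Csf1r is high only in organoids 1 and 2 and Tnfsf11 only in organoid 3.

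Csf1 encodes the growth factor on which macrophages and osteoclast precursors depend. It had 49.73, 71.93 and 71.4 CPM in organoids 1, 2 and 3, against 272, 234.2 and 250.5 CPM in 2D cultures 1, 2 and 3. Every organoid library lay below every 2D culture library, and the highest organoid stood far under the lowest 2D culture. Csf1 averaged 64.4 ± 12.7 CPM in organoids and 252 ± 19 CPM in 2D culture (SD, n = 3 each), a log2 fold change of -1.97 ± 0.23 (edgeR adjusted p = 0.00197). Scaled by total library size, the change was -2.56, and the call held under each setting tried.

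Other growth factors of myeloid cells were scarce. Il34, the second ligand of CSF1R, averaged 5.92 ± 3.71 CPM in organoids and 1.74 ± 0.481 CPM in 2D culture and did not pass (1.76 ± 0.70, edgeR adjusted p = 0.104). Its counts were fractional in 4 libraries, a sign of reads shared with other genes, so its level is uncertain. Csf2 and Csf3, the granulocyte-macrophage and granulocyte colony-stimulating factors, had 0 counts in all 6 libraries, a count that allows up to 0.0917 to 0.18 CPM in a library (3 counts, counting error only). Of the 5 tested genes among the 10 of this growth factor and receptor list, Csf1 was the 1 called (20%, against 27.5% of all tested genes).

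Tnfsf11, the osteoclast-inducing signal itself, was at or near the detection limit in 5 of 6 libraries. It had 4, 0 and 38 counts in organoids 1, 2 and 3, against 0, 2 and 1 counts in 2D cultures 1, 2 and 3. Organoid 3 thus held nearly all Tnfsf11 counts of the series, at 1.798 CPM, and organoid 2 held none. The pooled level was 25 times as high in organoids as in 2D culture, with a 95% exact interval of 7.98 to 126 that covers counting error only. Without organoid 3 the ratio was 3.87, with an interval of 0.655 to 26.4, so at this depth no difference was detectable in the other organoids. In the edgeR fit without the low-count filter Tnfsf11 did not pass (4.22 ± 1.93, adjusted p = 0.169).

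Tnfrsf11b, the secreted decoy for RANKL, was measured well in both groups. It had 38.3, 29.56 and 11.59 CPM in organoids 1, 2 and 3, against 48.89, 49.61 and 56.24 CPM in 2D cultures 1, 2 and 3. The groups did not overlap, and organoid 3, the library with the Tnfsf11 counts, had the lowest Tnfrsf11b level. The mean was 26.5 ± 13.6 CPM in organoids and 51.6 ± 4.05 CPM in 2D culture (SD, n = 3 each), which did not pass (-0.96 ± 0.43, edgeR adjusted p = 0.139). It passed with total library size (-1.63, edgeR adjusted p = 0.0176), a scaling that moved the median log2 fold change of all genes by -0.612.

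The ratio of Tnfrsf11b to Tnfsf11 counts within a library does not depend on scaling between libraries, as long as no count is added. Because the genes differ in length, it is compared between libraries only. With 0.5 added to each count, its log2 was 7.18, 9.94 and 2.67 in organoids 1, 2 and 3, against 11.64, 9.34 and 10.24 in 2D cultures 1, 2 and 3. Organoid 3 stood far below all other libraries. Organoid 2 and 2D culture 1 had 0 Tnfsf11 counts, so the added count sets their ratios and their place among the others. At such low Tnfsf11 counts the ratio also follows the unscaled Tnfrsf11b count, and with it the depth of the library. The mean log2 ratio was 6.6 ± 3.67 in organoids and 10.41 ± 1.16 in 2D culture, a difference of -3.81 (two-sided exact permutation p = 0.2, n = 3 each; the smallest p this design allows is 0.1). With 1 added, the log2 ratios were 7.02, 8.95 and 2.66 in organoids 1, 2 and 3, against 10.64, 9.08 and 9.83 in 2D cultures 1, 2 and 3. The groups then did not overlap, and the difference was -3.64 (exact permutation p = 0.1, the smallest possible). With 3 added it was -3.24 (exact permutation p = 0.1). Whether the groups overlap thus turns on the added count. With 0.5 added and organoid 3 left out, the difference was -1.85.

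**Figure D2:**
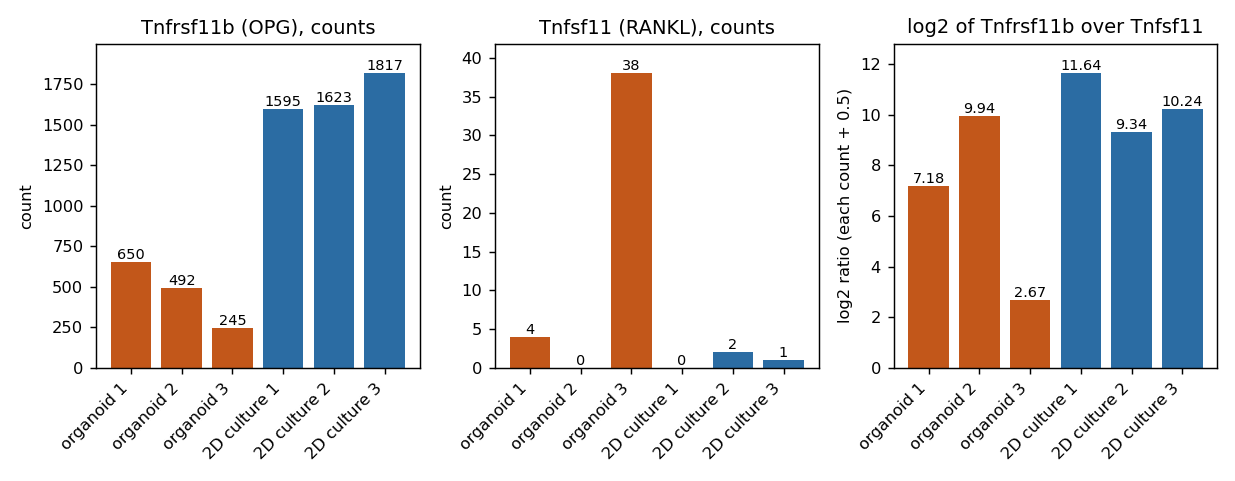
Unscaled counts of Tnfrsf11b (left) and Tnfsf11 (middle) and the log2 of their ratio with 0.5 added to each count (right) in each organoid library (orange) and each 2D culture library (blue). Organoid 3, with 38 Tnfsf11 and 245 Tnfrsf11b counts, has the lowest log2 ratio at 2.67.

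Neither receptor of osteoclast precursors had enough counts for the test. Tnfrsf11a, the receptor through which RANKL acts, had 0 counts in organoids 1, 2 and 3, against 1, 4 and 2 counts in 2D cultures 1, 2 and 3. It was below or at the detection limit in every library but 2D culture 2, where 4 counts corresponded to 0.1223 CPM. Its pooled level in 2D culture was 1.31 times a floor of 3 counts over the organoid group. The counting error of the 7 counts in 2D culture is not included, so this is not a lower bound. Without the low-count filter it did not pass (edgeR adjusted p = 0.171).

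Csf1r, the receptor tyrosine kinase for M-CSF and a defining gene of macrophages and their relatives, split the organoids. It had 551, 278 and 3 counts in organoids 1, 2 and 3, against 5, 0 and 9 counts in 2D cultures 1, 2 and 3. In scaled levels this was 32.46, 16.7 and 0.142 CPM in organoids and 0.1532, 0 and 0.2786 CPM in 2D cultures. Organoids 1 and 2 were far above every other library, while organoid 3 lay within the range of the 2D cultures. Csf1r was not tested in the filtered fit because just 2 libraries reached the count minimum. Without the filter its log2 fold change was 6.75 ± 1.88 (edgeR adjusted p = 0.045). With a library left out the filter asks for just 2 libraries, which Csf1r met through organoids 1 and 2 alone, where it was high. Its log2 fold change was 7.36 ± 1 without organoid 3, the organoid in which it was low. The p of that fit is no support, because the selection itself favours a difference. Csf1r did not pass without any of the 2D cultures (edgeR adjusted p = 0.116 to 0.149). It stayed under the filter without organoid 1 and without organoid 2.

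Other markers of the macrophage lineage had few counts in most libraries. Of 19 macrophage and blood cell markers measured, 13 were removed by the low-count filter and 6 were tested. Of these, 1 was called higher (16.7%, near the 14.9% of all tested genes). Adgre1 (F4/80), Cx3cr1 and Tyrobp, an adaptor of myeloid receptors, had 0 counts in all organoids. Ptprc (CD45), present on nucleated blood cells, had 1, 0 and 3 counts in organoids 1, 2 and 3, and 0 counts in each 2D culture. Spi1 (PU.1), the transcription factor required for myeloid cells, had 1, 2 and 4 counts in organoids, against 5, 3 and 0 in 2D cultures. Some other markers stood highest in a single organoid. Mrc1, a mannose receptor, had 22, 0 and 0 counts in organoids 1, 2 and 3, against 2, 0 and 0 in 2D cultures 1, 2 and 3. The complement genes C1qa and C1qb had 7 and 3 counts in organoid 1 and 0 in every other library, and C1qc had 5 counts in organoid 3 alone. Laptm5, a lysosomal protein of blood cells, had 47, 8 and 3 counts in organoids, against 21, 9 and 5 in 2D cultures. Coro1a, an actin-binding protein of leukocytes, had 36, 18 and 218 counts in organoids, against 44, 38 and 33 in 2D cultures. Organoid 1, with the highest Csf1r, thus had the highest counts of Mrc1, C1qa, C1qb and Laptm5. Organoid 3, with 3 Csf1r counts, had the highest counts of Coro1a, C1qc, Ptprc and Fcer1g. Fcer1g, an adaptor of immune receptors, had 3, 0 and 36 counts in organoids, against 4, 9 and 13 in 2D cultures. The part of blood cells in the Csf1r levels was not tested. The summed level of the whole list was 29.43 to 71.53 CPM in organoids and 9.721 to 12.38 CPM in 2D culture. Without Csf1r itself and Cd14, a lipopolysaccharide coreceptor found in all 6 libraries at 219 to 366 counts, the sum was 20.44, 6.129 and 18.93 CPM in organoids 1, 2 and 3, against 2.538 to 4.138 CPM in 2D culture. Organoid 2, with the second highest Csf1r, thus had the lowest sum among organoids. The called marker was Lyz2, a lysozyme, with 6.77 ± 4.50 CPM in organoids and 0.429 ± 0.371 CPM in 2D culture (3.96 ± 1.03, edgeR adjusted p = 0.0309). Lyz2 had fractional counts in organoids 1 and 3 and lost its call without organoid 1 (adjusted p = 0.0589) and without any 2D culture (adjusted p = 0.074 to 0.129).

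Csf1r sits directly beside Pdgfrb, a receptor of mesenchymal cells, in the rat RefSeq annotation (GRCr8). Pdgfrb had 730, 33 and 410 counts in organoids 1, 2 and 3, against 5160, 4746 and 6293 counts in 2D cultures 1, 2 and 3. Every organoid lay below every 2D culture, and organoid 2, with 278 Csf1r counts, had the fewest Pdgfrb counts; the difference did not pass (-2.95 ± 0.92, edgeR adjusted p = 0.0537). The share of Csf1r counts that could stem from Pdgfrb transcripts was not tested. The genome build and strand setting behind the deposited counts are not stated in the labels or files. Among the 8 genes, none of the 48 estimated counts was fractional.

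**Figure D3:**
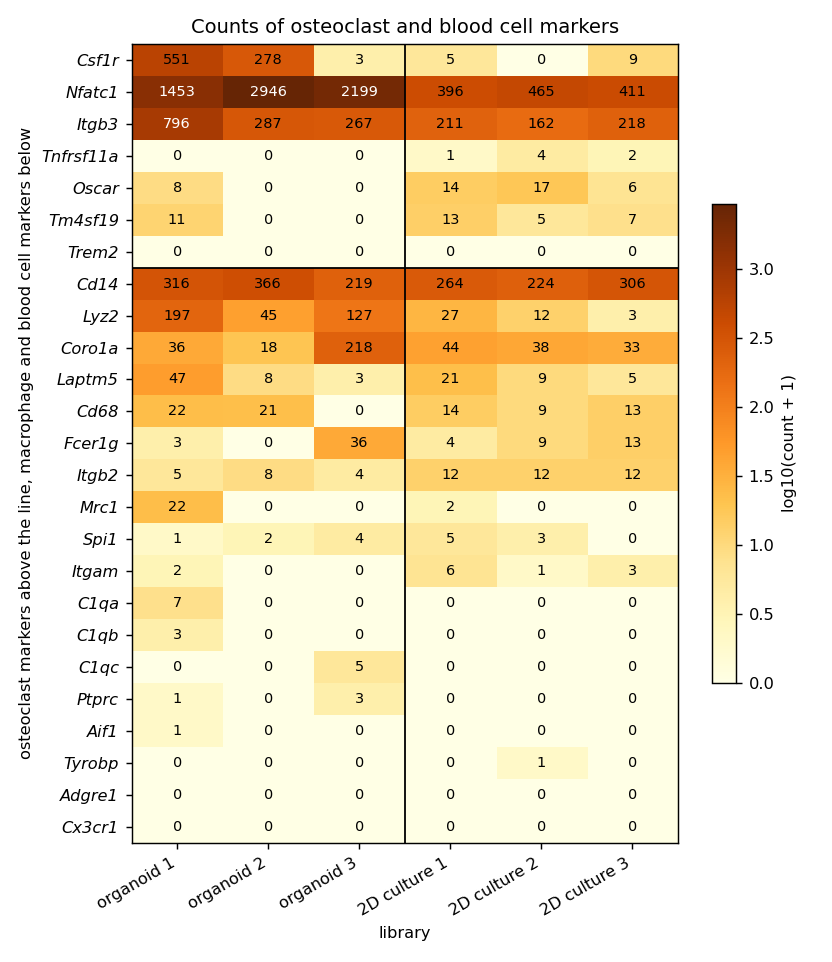
Unscaled counts of osteoclast markers (above the horizontal line) and macrophage and blood cell markers (below it) in organoids (left of the vertical line) and 2D cultures (right); colour is log10(count + 1) and each cell gives the count, rounded to a whole number. Csf1r reaches 551 and 278 counts in organoids 1 and 2, where Tnfrsf11a, Trem2, Tyrobp, Adgre1 and Cx3cr1 are at 0. Other markers peak in different organoids. In organoids 1, 2 and 3, Lyz2 has 197, 45 and 127 counts, Mrc1 22, 0 and 0, and Laptm5 47, 8 and 3. Coro1a has 36, 18 and 218 counts there and Fcer1g 3, 0 and 36. Cd68 has 22, 21 and 0 counts in organoids, against 14, 9 and 13 in 2D cultures.

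Nfatc1, the factor downstream of RANK in osteoclasts, which also acts in skeletal progenitors and in heart valve formation, rose in every organoid. It had 85.61, 177 and 104.1 CPM in organoids 1, 2 and 3, against 12.14, 14.21 and 12.72 CPM in 2D cultures 1, 2 and 3. Every organoid stood several times above every 2D culture, with organoid 2 the highest. Nfatc1 averaged 122 ± 48.3 CPM in organoids and 13 ± 1.07 CPM in 2D culture (SD, n = 3 each), a log2 fold change of 3.23 ± 0.33 (edgeR adjusted p = 0.00139). The call held under each setting tried, with log2 fold changes of 2.66 to 3.44.

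Nfatc1 rose with some other genes of the calcineurin and NFAT list. The phosphatase calcineurin releases NFATc proteins into the nucleus, a step that does not govern Nfat5, which the list also holds. Of 15 genes of that list, all tested, 7 rose, Nfatc1 included (46.7%, against 14.9% of all tested genes). None fell, against 12.6% of all tested genes. The median log2 fold change was 1.64 against -0.0326 over all tested genes. Nfatc2, a related factor, averaged 13.5 ± 7.01 CPM in organoids and 0.42 ± 0.188 CPM in 2D culture (4.99 ± 0.69, edgeR adjusted p = 0.00389). Ppp3ca and Ppp3cb, catalytic subunits of calcineurin, rose by 2.38 ± 0.33 and 1.64 ± 0.43. The subunit genes Ppp3cc (0.28 ± 0.44, edgeR adjusted p = 0.671) and Ppp3r1 (-0.53 ± 0.41, edgeR adjusted p = 0.375) did not pass. Ppp3r1 lay lower in every organoid than in every 2D culture. Nfatc3 and Nfat5, whose counts were fractional in every library and so may share reads with other genes, rose by 2.11 ± 0.23 and 2.31 ± 0.28. Dyrk1a, a kinase that opposes calcineurin by returning NFAT to the cytoplasm, rose by 1.65 ± 0.42. Rcan1, a calcineurin inhibitor that NFAT itself induces in many cells, had 35.9 ± 22.4 CPM in organoids and 37.8 ± 5.52 CPM in 2D culture and did not pass (-0.08 ± 0.43, edgeR adjusted p = 0.914). Nfatc4, another NFAT factor, lay lower in every organoid, at 16.14, 7.691 and 13.01 CPM in organoids 1, 2 and 3, against 24.92, 26.9 and 26.9 CPM in 2D cultures, and did not pass (-1.09 ± 0.33, edgeR adjusted p = 0.0501). With total library size 5 genes of the list rose and 1 fell.

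Genes that relay the RANK signal were called about as often as other genes in the higher direction. Of 21 listed, 19 were tested and 3 (15.8%, against 14.9% of all tested genes) rose: Nfatc1, Lgr4 and Fos. None fell, against 12.6% of all tested genes. Lgr4, an R-spondin receptor that is also known to bind RANKL, averaged 90.7 ± 41.4 CPM in organoids and 11 ± 1.73 CPM in 2D culture (3.04 ± 0.37, edgeR adjusted p = 0.0026). Fos, an AP-1 subunit required for osteoclast formation and an immediate early gene in most cells, averaged 48.1 ± 19.7 CPM in organoids and 14.2 ± 1.56 CPM in 2D culture (1.76 ± 0.36, edgeR adjusted p = 0.0147). Fos lost its call without any 2D culture (adjusted p = 0.0673 to 0.0826) and with total library size (adjusted p = 0.0551). Traf6, the adaptor that binds RANK, had 36.3 ± 3.81 CPM in organoids and 27.9 ± 1.68 CPM in 2D culture and did not pass (edgeR adjusted p = 0.226). The list's median was 0.319, and total library size gave 2 genes higher and 2 lower.

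Genes of later osteoclasts were mostly too low to test. Of the 10 genes measured in the differentiation and fusion list, 8 were removed by the low-count filter and 2 were tested. Both rose, against 14.9% of all tested genes: Nfatc1, which the RANK and calcineurin lists also hold, and Itgb3. Itgb3, the integrin subunit by which osteoclasts seal to bone and which other adherent cells also use, averaged 25.6 ± 18.6 CPM in organoids and 6.06 ± 0.966 CPM in 2D culture (2.08 ± 0.55, edgeR adjusted p = 0.0322). It lost its call without any 2D culture (adjusted p = 0.111 to 0.126) and with total library size (adjusted p = 0.0629). Dcstamp, a protein needed for osteoclast fusion, had 0 counts in all 6 libraries, as did Trem2. Oscar, a costimulatory receptor of osteoclasts, had 8, 0 and 0 counts in organoids 1, 2 and 3, against 14, 17 and 6 counts in 2D cultures. Ocstamp, Siglec15, Calcr and Atp6v0d2 were not analysed here.

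Of the resorption enzymes Acp5 and Ctsk, Acp5 was called higher and Ctsk did not pass; the difference between their changes was not tested. Acp5, the phosphatase stained as TRAP to find osteoclasts, had 98.98, 23.19 and 14.76 CPM in organoids 1, 2 and 3, against 4.352, 3.546 and 4.178 CPM in 2D cultures 1, 2 and 3. All organoids lay above all 2D cultures, and organoid 1 stood well above the other organoids. Acp5 averaged 45.6 ± 46.4 CPM in organoids and 4.03 ± 0.424 CPM in 2D culture (SD, n = 3 each), a log2 fold change of 3.50 ± 0.76 (edgeR adjusted p = 0.0174). The change was 2.25 without organoid 1 and 2.73 with total library size, both still called, and the call was lost without any of the 2D cultures (adjusted p = 0.0803 to 0.081). Organoid 1 was also the library with the highest Csf1r, Itgb3 and Lyz2. It was highest in summed cartilage markers too, at 98740, 11480 and 30450 CPM in organoids 1, 2 and 3, against 1499 to 1601 CPM in 2D culture. Bone markers were mixed. Alpl, the alkaline phosphatase of mineralising cells, had 3658, 1316 and 1674 CPM in organoids, against 140.7 to 151.3 CPM in 2D culture. Ibsp also stood highest in organoid 1, and Phex lay between the other organoids. Sp7, Bglap, Dmp1, Mepe and Spp1 were lowest in organoid 1 among the organoids. Bglap, for example, had 779.7, 1473 and 1465 CPM in organoids 1, 2 and 3. The part of other cell types, or of this spread between organoids, in the Acp5 level was not tested.

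Ctsk, the collagen-cleaving protease of osteoclasts, which fibroblasts and other mesenchymal cells also make, was abundant in both groups. It had 165.3, 195.5 and 87.91 CPM in organoids 1, 2 and 3, against 136.4, 137.3 and 134.3 CPM in 2D cultures 1, 2 and 3. Organoids 1 and 2 lay above the narrow range of the 2D cultures and organoid 3 below it. Ctsk averaged 150 ± 55.5 CPM in organoids and 136 ± 1.56 CPM in 2D culture and did not pass (0.14 ± 0.31, edgeR adjusted p = 0.773). Its sign turned with total library size (-0.49) and without organoid 2 (-0.06), neither past the threshold.

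Of 20 resorption genes measured, which serve acid secretion and matrix cleavage, 19 were tested, 1 rose (Acp5) and 3 fell, with a median log2 fold change of -0.347. The share called, 21.1%, is near the 27.5% of all tested genes, and the share that fell, 15.8%, is near the 12.6% of all tested genes. Clcn7, the chloride transporter that works with the proton pump in lysosomes and at the osteoclast border, averaged 39.7 ± 2.67 CPM in organoids and 81.3 ± 3.09 CPM in 2D culture (-1.03 ± 0.18, edgeR adjusted p = 0.00871). The proton pump subunits Atp6v0b and Atp6v1c1, used in lysosomes of all cells, fell by 1.07 and 0.79 on the log2 scale (edgeR adjusted p = 0.0181 and 0.0435). Atp6v1c1 lost its call with the replicate block (adjusted p = 0.0765), with a weight per group in limma-voom (0.0929) and without organoid 1 (0.0794). Tcirg1, the pump subunit of osteoclasts, had 32.4 ± 19.1 CPM in organoids and 41.3 ± 2.41 CPM in 2D culture and did not pass (edgeR adjusted p = 0.566). Mmp9, a gelatinase of osteoclasts, had 35, 0 and 157 counts in organoids 1, 2 and 3, against 13, 56 and 33 in 2D cultures, and did not pass (edgeR adjusted p = 0.485). Total library size gave 1 gene higher and 10 lower, and no gene of the list was called without any one of the 2D cultures.

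Upstream sequence is shown for Acp5 and Ctsk, which NFATc1 is known to activate in osteoclasts, because Nfatc1 and Acp5 were both called higher and Ctsk was not. RefSeq windows on GRCr8 run from 250 bases before to 50 after an annotated start, and 4 of the 8 genes had one (Tnfsf11, Csf1r, Acp5 with 2 starts, and Ctsk). Capitals mark matches on either strand to GGAAA, the core of NFAT sites (reverse complement TTTCC), to CATGTGA, a site of MITF, the melanocyte and osteoclast factor (reverse complement TCACATG), or to TGANTCA, the AP-1 site. The windows lie at chr8:28943880-28944179 (minus strand) and chr8:28945881-28946180 (minus strand) for Acp5 and at chr2:185747298-185747597 (plus strand) for Ctsk.
Acp5, start at lower coordinates: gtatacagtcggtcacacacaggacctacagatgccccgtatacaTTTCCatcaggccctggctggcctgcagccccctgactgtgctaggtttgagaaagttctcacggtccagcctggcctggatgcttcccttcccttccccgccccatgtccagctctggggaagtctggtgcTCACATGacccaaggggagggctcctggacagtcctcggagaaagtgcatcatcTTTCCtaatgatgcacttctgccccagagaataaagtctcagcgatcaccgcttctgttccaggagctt
Acp5, start at higher coordinates: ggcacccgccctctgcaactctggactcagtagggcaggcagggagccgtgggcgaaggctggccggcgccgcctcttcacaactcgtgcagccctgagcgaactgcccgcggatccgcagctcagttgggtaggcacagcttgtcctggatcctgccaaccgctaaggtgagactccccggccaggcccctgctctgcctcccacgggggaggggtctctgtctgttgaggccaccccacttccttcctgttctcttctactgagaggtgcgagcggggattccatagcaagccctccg
Ctsk: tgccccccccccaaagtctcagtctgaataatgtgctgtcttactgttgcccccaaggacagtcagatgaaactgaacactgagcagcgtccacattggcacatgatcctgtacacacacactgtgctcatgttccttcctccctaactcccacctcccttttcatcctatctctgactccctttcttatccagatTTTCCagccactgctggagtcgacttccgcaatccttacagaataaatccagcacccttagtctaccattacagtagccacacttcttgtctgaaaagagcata
The first Acp5 window held 2 NFAT cores and 1 MITF match, the second held none of the motifs, and the Ctsk window held 1 NFAT core. Of the windows not shown, that of Csf1r held 2 NFAT cores and that of Tnfsf11 none of the motifs. A link between these matches and the calls was not tested. NFAT cores are common, in 62.7% of the 33469 windows of this length, while the MITF letters were in 3.89% and the AP-1 letters in 7.33%. A match is a description of the letters, not a site of binding. The counts are per gene and do not say which Acp5 start was used. Mitf itself had 250, 59 and 42 counts in organoids 1, 2 and 3, against 196, 181 and 184 counts in 2D cultures, and did not pass (0.23 ± 0.77, edgeR adjusted p = 0.852).

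Of 24 measured regulators of RANKL and OPG in skeletal cells, 22 were tested, 6 rose and 3 fell, with a median log2 fold change of 0.172. The share that rose was 27.3%, against 14.9% of all tested genes, and the share that fell was 13.6%, near the 12.6% of all tested genes. Pth1r, the receptor for parathyroid hormone and PTHrP, whose stimulation raises RANKL in bone cells, had 1530, 1320 and 1023 CPM in organoids 1, 2 and 3, against 7.264, 9.323 and 7.552 CPM in 2D cultures (7.32 ± 0.32, edgeR adjusted p = 0.000142). Vdr, the vitamin D receptor, rose by 2.33 ± 0.39, Lifr, a receptor of the IL-6 family, by 3.56 ± 0.35 and the Wnt coreceptor Lrp5 by 2.41 ± 0.34. Sost, the osteocyte inhibitor of Wnt signalling, had 50, 113 and 82 counts in organoids 1, 2 and 3, against 0, 1 and 0 in 2D cultures, a ratio of 437 with a 95% exact interval of 77.7 to 17300 (counting error only). Tnfsf11 had 0 counts in organoid 2, the library with the highest Sost count.

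Among the regulators that fell, Il6st, the shared receptor chain of the IL-6 family, averaged 94.5 ± 49.8 CPM in organoids and 327 ± 14.1 CPM in 2D culture (-1.79 ± 0.41, edgeR adjusted p = 0.0212). Sema3a, a secreted protein known to protect bone, fell by 1.6 on the log2 scale. Ebf2, a factor that raises OPG in osteoblast precursors of mice, had 2, 0 and 0 counts in organoids 1, 2 and 3, against 156, 105 and 136 in 2D cultures, and its pooled level was 111 times as high in 2D culture (95% exact interval 30.6 to 922). Il6, a cytokine that raises RANKL, had 0 counts in the organoids and 4, 10 and 11 counts in 2D cultures. Its pooled level in 2D culture was 4.67 times a floor of 3 counts over the organoid group (counting error of the 2D culture counts not included). Total library size gave 5 genes of the list higher and 5 lower. Without any one of the 2D cultures 5 rose and 0 fell, while the counts were 7 higher and 9 lower without organoid 1.

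**Figure D4:**
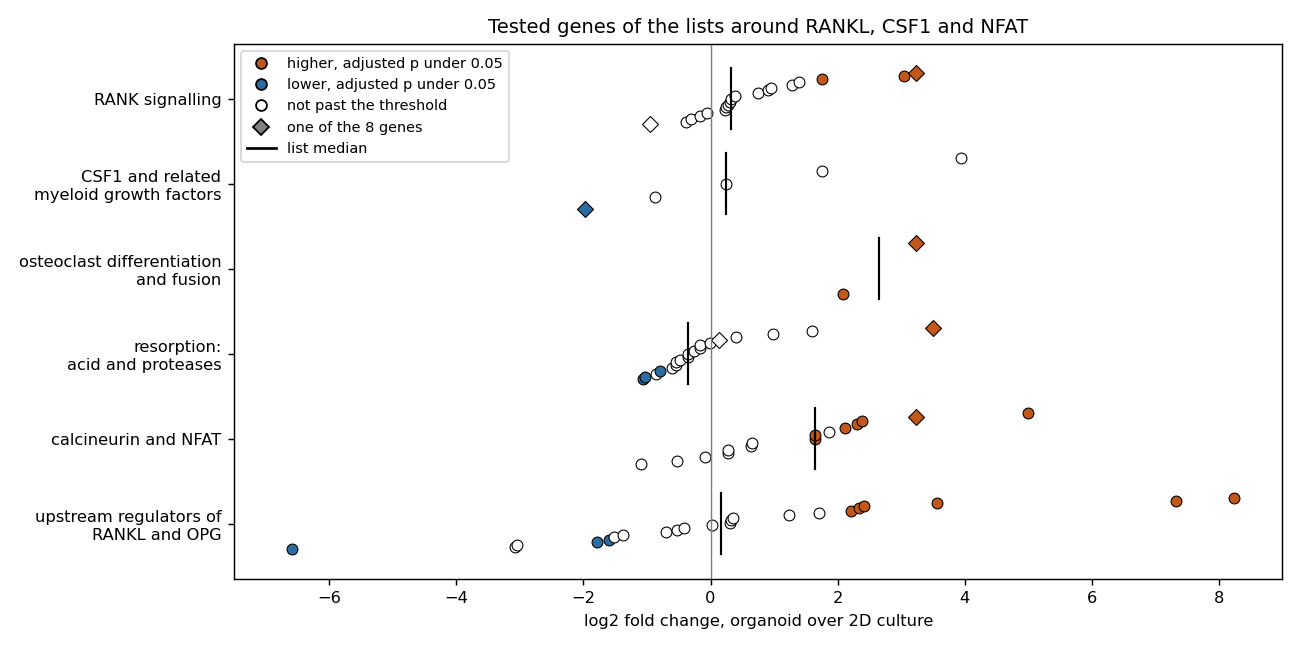
Log2 fold change, organoid over 2D culture (horizontal axis), of each tested gene in the 6 lists around RANKL, CSF1 and NFAT (rows); orange and blue mark genes called higher and lower, open symbols genes that did not pass, diamonds the genes of the axis itself and black bars list medians. The calcineurin and NFAT list has the most called genes on the higher side (7 of 15, Nfatc1 included, against 14.9% of all tested genes). Csf1 is the single called gene of its list.

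Genes with the most similar pattern were sought for the 5 tested genes among 8813 genes of at least 10 CPM on average over the 6 libraries, by Pearson's r of log2 CPM over the 6 libraries. Many genes reached a high r over so few libraries: 1268 exceeded 0.9 for Nfatc1, 1016 for Csf1, 577 for Acp5, 418 for Tnfrsf11b and 189 for Ctsk. The groups did not overlap for any of these but Ctsk. Closest to Nfatc1 were Crip2, Wipi1 and Zfp106 (r = 0.999 each). Closest to Csf1 were Tank, Ebna1bp2 and Lyrm1 (r = 0.9985 to 0.9995), and closest to Acp5 were Col16a1, Dctn1 and Loxl2. Tmem201, Mcfd2 and Mocs1 followed Tnfrsf11b most closely, and Pggt1b, Taf3 and Gatb followed Ctsk. Loxl2, a collagen-crosslinking enzyme, had 2032, 1001 and 949.9 CPM in organoids 1, 2 and 3, against 552.6, 519 and 528.5 CPM in 2D cultures. Organoid 1 stood highest, as for Acp5, a likeness for which Loxl2 was picked.

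**Figure D5:**
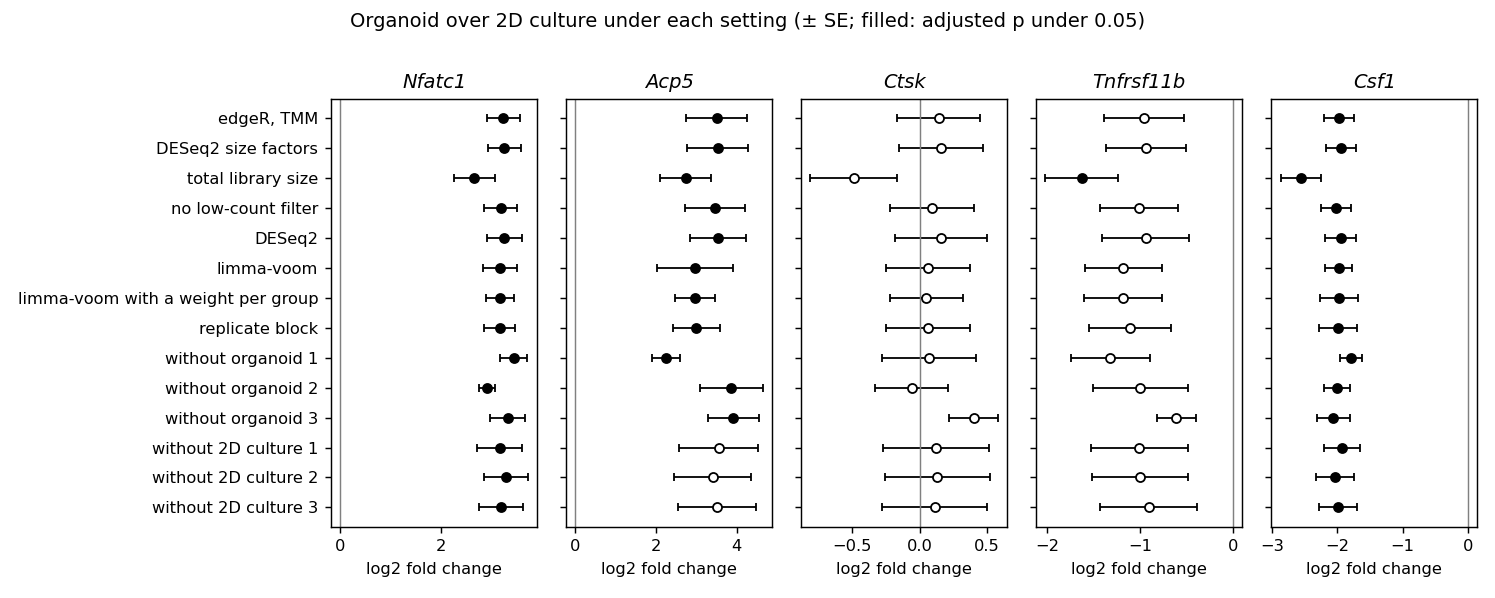
Log2 fold change ± SE, organoid over 2D culture (horizontal axes, own scale per panel), of the 5 tested genes under each processing setting (rows), with filled points where the adjusted p is under 0.05. Nfatc1 and Csf1 are filled in every row, Acp5 is open without any of the 2D cultures, Tnfrsf11b is filled with total library size alone, and Ctsk is open throughout and lies on both sides of 0.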

How the data were processed

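The 6 libraries (3 of organoids, 3 of 2D culture, grouped and numbered by their titles) were prepared from total RNA using an mRNA library kit and the DNBSEQ platform, per the labels' protocols. Tools named in the submitters' processing notes, with no version or role, are HISAT, HISAT2, Bowtie2, DESeq2 and RSEM; the build, annotation and strand setting: not given in the sources used here. The authors deposited expected counts per gene, not normalised, with 0 rows that name no gene. They were rounded to whole numbers and analysed in R 4.3.3 with edgeR 4.0.16 (filterByExpr with minimum count 10, TMM with factors of 0.662 to 0.896 in organoids and 1.231 to 1.266 in 2D culture, robust quasi-likelihood F-test, Benjamini-Hochberg over all tested genes), without a replicate block. Standard errors were derived by dividing the size of the log2 fold change by the root of the F statistic. Alternatives used limma 3.58.1 and DESeq2 1.42.0, other scalings, no filter, a replicate block and each library left out. The fits were checked on simulated data.

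Limits for 0 counts rest on 3 counts, and intervals are 95% exact ones. Replicates of a group differed by more than sampling noise in every pair (lowest chi-square of 9.12 for each degree of freedom). Gene IDs matched a RefSeq table of assembly GRCr8 for 17720 of 17954 rows, which gave names, neighbours and promoter windows; 3 listed symbols were matched through it. The 8 genes and the 9 gene lists (141 entries, 135 measured) were chosen with earlier results of these data known. Genes were named by a rule: all 8, in each list up to 3 called genes with the biggest change (minimum 1 CPM) and the biggest opposite one, and 3 genes of most similar pattern for each tested gene. Other named genes were chosen after their values were seen.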

Additional observations from a re-analysis of the deposited data

How the results depend on the processing

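Nfatc1 and Csf1 kept direction and call under all 13 alternatives (Nfatc1 2.66 to 3.44 and Csf1 -2.56 to -1.79 on the log2 scale). Acp5 kept its direction, at 2.25 to 3.91 with a library left out. Tnfrsf11b passed with total library size alone (-1.63) and ran from -1.32 to -0.61 with a library left out. Ctsk turned sign with total library size (-0.49) and without organoid 2 (-0.06), with leave-out values of up to 0.4, and passed nowhere. The number of the 8 genes called was 3, and 2 to 4 with a library left out. The 4 without organoid 3 included Csf1r, which met the filter there through organoids 1 and 2 alone. The log2 Tnfrsf11b to Tnfsf11 difference was -5.48 to -1.85 with a library left out and -3.81 with permutation within replicate pairs (exact permutation p = 0.5). It was -3.64 with 1 added to each count and -3.24 with 3 added (exact permutation p = 0.1 each).

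All called genes numbered 3594, and 1109 to 5321 with a library left out. The causes of these differences were not tested. The RANK signalling list had 3 called genes, 5 with DESeq2 and 2 to 6 with a library left out. The CSF1 list had 1 called gene, 2 without the low-count filter, 3 with DESeq2, 2 with limma-voom and 1 to 3 with a library left out. The osteoclast differentiation list had 2, 1 with total library size and 1 to 3 with a library left out. The resorption list had 4, 11 with total library size, 7 with DESeq2 and 0 to 7 with a library left out. The calcineurin list had 7 and 5 to 8 with a library left out, and the regulator list 9 and 5 to 16.

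With replicate number as a block (replicate block) 2730 genes were called, Nfatc1 stood at 3.16, Acp5 at 3 and Csf1 at -1.99, and no call among the 8 genes changed. Deviations of same-numbered libraries correlated at 0.0606, 0.187 and 0.0207, and those of differently numbered libraries at -0.135 to 0.0698. So few values cannot decide whether a number marks a shared animal or culture. No block was used in the main fit because the labels state no pairing. Tnfrsf11a in all libraries, Tnfsf11 outside organoid 3, and Csf1r in organoid 3 and the 2D cultures had at most 9 counts per library, so their ratios have wide counting intervals.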
